A study of Rattus norvegicus with 12 samples.

Results

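Of the kainate and metabotropic glutamate receptors, 9 genes were followed across 4 regions of the rat brain, namely *Grik1*, *Grik2*, *Grik4* and *Grik5* for the kainate receptors and *Grm2*, *Grm3*, *Grm4*, *Grm5* and *Grm7* for the metabotropic ones. They were chosen by symbol, as every probe set annotated to 1 of these names, and each gene had 1 probe set on the array, so that 9 of 15923 probe sets and 9 of 10411 genes with a symbol of their own are described. Neurons were lifted by laser capture microdissection from brain sections of rats of the Fisher 344/BN F1 hybrid at 6 months of age, with no treatment in any group. The CA1 and CA3 pyramidal cell layers of the hippocampus, the granule cell layer of the cerebellum (CbG) and the deeper layers of the frontal cortex (CTX) gave 3 arrays each, labelled as biological replicates 1 to 3. The study groups CA1 and CbG as vulnerable (VUL) and CA3 and CTX as resistant (RES) to oxidative stress. A captured layer is not a pure cell type and also holds glia and interneurons, and in such bulk samples fewer cells of a type and less RNA per cell cannot be told apart.

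Glutamate acts on channels that open when it binds and on receptors that signal through G proteins. Kainate receptors are channels built of several subunits. The *Grik1* and *Grik2* subunits can form channels on their own, whereas those of *Grik4* and *Grik5* bind kainate with high affinity and need one of the former as a partner. Kainate receptors are known from the mossy fiber synapse, where dentate granule cells contact CA3 pyramidal neurons. The metabotropic receptors fall into group I (*Grm5* here), which couples to Gq and phospholipase C, and groups II (*Grm2* and *Grm3*) and III (*Grm4* and *Grm7*), which couple to Gi and Go and lower cyclic AMP. Those of group III act mostly on the release of transmitter, *Grm4* at the parallel fibers of cerebellar granule cells.

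Before any gene is described, 2 of the 12 arrays need mention. The array labelled CA3 replicate 3 had a mean correlation of 0.965 with CbG replicates 1 and 2 and of 0.881 with CA3 replicates 1 and 2, and the array labelled CbG replicate 3 had 0.881 with the former and 0.974 with the latter. *Gabra6*, a receptor subunit of cerebellar granule cells, gave 2567.6 on the array labelled CA3 replicate 3 and of 15.4 on that labelled CbG replicate 3, against 3379.3 and 1282.9 on CbG replicates 1 and 2. Both arrays thus went against their labels, and the regional tests of the receptor genes were run for the 12 arrays under their labels, for the 10 that remain without these 2 and with the 2 labels exchanged. The array labelled CbG replicate 3 also stood apart from CA3 replicates 1 and 2. The sum of 5 CA1 markers was 7520.4 on it, 1929.9 and 723.4 on those and 28174 to 36265 in CA1, and its part in the values with exchanged labels was not tested. Over the 10 arrays, all 5 measured CA1 markers were higher in CA1 than in CA3, where 4.03% of all probe sets were called, and 5 of 6 granule cell markers were higher in CbG than in CTX, where 12.1% were called. Of 3 measured CA3 markers 1 was higher in CA3 than in CA1, and of 4 deep cortical markers 1 was higher in CTX than in CbG.

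Signals are MAS5 intensities on a linear scale, and array medians lay between 145.5 and 199.3. *Grik2* was above the median of its array on 11 of 12 arrays, *Grik5* on 10, *Grik4* and *Grm3* on 5, *Grm4* on 3 and *Grik1* on 2. *Grm2*, *Grm5* and *Grm7* lay below it on all 12. Differences are on the scale of log2(signal + 50) after each array was set to the same median, which understates the change of a weak signal. They are called here when limma gave a Benjamini-Hochberg adjusted p under 0.05 over all 15866 probe sets tested and the difference was at least 1.5-fold. The median of the deposited signals was itself lower in CA3 than in CTX by a log2 shift of -0.36 over the 10 arrays, so differences are relative to the array median.

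Over the 10 arrays, 7 of the 9 receptor genes differed among the 4 regions (moderated F test of limma), where 31.8% of all probe sets did. The exceptions were *Grm5* (adjusted p = 0.826) and *Grm7* (adjusted p = 0.351). Over the 12 arrays as labelled, *Grm3* (adjusted p = 0.00715) and *Grik1* (adjusted p = 0.0451) passed, where 2.38% of all probe sets did. With the 2 labels exchanged 7 passed, where 38.8% of all probe sets did.

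**Figure D1:**
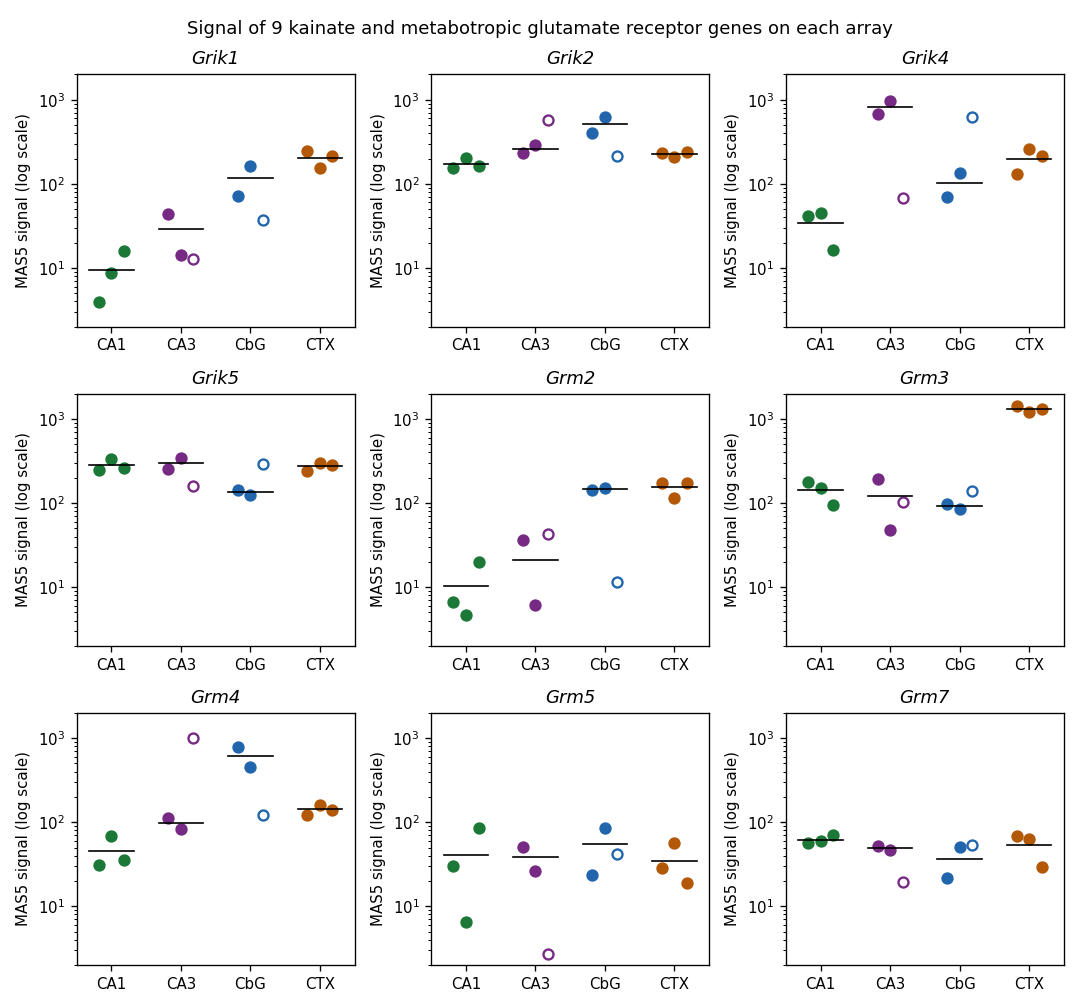
MAS5 signal of each receptor gene on a log axis in CA1, CA3, CbG and CTX, with 1 point per array and the replicates 1 to 3 from left to right. Open circles mark replicate 3 of CA3 and of CbG as labelled, and bars are region means of the other arrays. *Grik4* is highest on CA3 replicates 1 and 2 (679.9 and 969), *Grm4* on CbG replicate 1 among the filled points (786.7) and *Grm3* on the 3 CTX arrays, and for *Grik4* and *Grm4* the open circles lie with the other region's points.

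*Grik4* stood out in CA3. Its signal was 42, 45.3 and 16.5 on the 3 CA1 arrays, 679.9 and 969 on CA3 replicates 1 and 2, 70 and 135.6 on CbG replicates 1 and 2, and 129.3, 256.6 and 211.8 on the 3 CTX arrays. The array labelled CA3 replicate 3 gave 68 and that labelled CbG replicate 3 gave 621. Both CA3 arrays lay above every array of the other regions, and no CA1 array reached the lowest value of another region. The CA1 minus CA3 difference was -3.41 ± 0.25 (log2, SE; adjusted p = 0.000295 in limma over the 10 arrays), and CA3 exceeded CTX by 2.07 ± 0.25 (adjusted p = 0.00126) and CbG by 2.72 ± 0.26 (adjusted p = 0.000105). CTX in turn exceeded CA1, with a CA1 minus CTX difference of -1.34 ± 0.21 (adjusted p = 0.00266). CTX against CbG and CbG against CA1 did not pass (adjusted p = 0.125 and 0.0757), though limma gave both an unadjusted p under 0.05. As labelled, the CA1 minus CA3 difference was -2.48 ± 0.85 (adjusted p = 0.33) and no pair passed. With the labels exchanged, the mean signal was 757 ± 186 (SD, n = 3) in CA3 and 91.2 ± 38.5 in CbG, and the CA1 minus CA3 difference was -3.32 ± 0.20 (adjusted p = 8.06e-06). With no value added before log2, CA3 minus CTX was 2.26 and was not called.

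*Grik5*, the other high-affinity subunit, was the most even of the genes that differed, and was lower in CbG. Its signal was 248.1, 332.9 and 260.4 in CA1, 256.8 and 345.4 on CA3 replicates 1 and 2, 143.7 and 124.7 on CbG replicates 1 and 2, and 238.7, 301.2 and 286 in CTX. It was 159.7 on the array labelled CA3 replicate 3 and 292.2 on that labelled CbG replicate 3. Both CbG arrays lay below all arrays of the other regions. CA1 exceeded CbG by 0.99 ± 0.20 (log2, SE; adjusted p = 0.00618) and CA3 exceeded CbG by 1.11 ± 0.21 (adjusted p = 0.00433). The CbG minus CTX difference was -0.70 ± 0.20 (adjusted p = 0.0476), and it was not called without any 1 array other than CbG replicate 1 (-0.73 to -0.50). CA1, CA3 and CTX did not differ beyond their spread. CA1 minus CbG was not called without CbG replicate 2 (0.79), nor CA3 minus CbG without CA3 replicate 2 (0.985). As labelled, the F test gave an adjusted p of 0.557 for *Grik5*, and with the labels exchanged 0.00242.

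Of the subunits that form channels on their own, *Grik2* was highest in CbG. Its signal was 156, 200.2 and 164.5 in CA1, 233.2 and 287.9 on CA3 replicates 1 and 2, 397.9 and 621.9 on CbG replicates 1 and 2, and 234.4, 206.6 and 238 in CTX. It was 578.2 on the array labelled CA3 replicate 3 and 213.2 on that labelled CbG replicate 3. CbG lay above all arrays of the other regions when the 2 arrays were left out, while the lowest CA3 value fell among those of CTX. CbG exceeded CTX by 1.10 ± 0.22 (log2, SE; adjusted p = 0.0116), and the CA1 minus CbG difference was -1.15 ± 0.22 (adjusted p = 0.00513). The CA3 minus CbG difference, -0.63 ± 0.23, did not pass over the 10 arrays (adjusted p = 0.0826) and was -0.85 ± 0.20 with the labels exchanged (adjusted p = 0.00657). CA1 minus CA3 was not called over the 10 arrays or as labelled, though limma gave an unadjusted p under 0.05 in both. Every CA1 array lay below every CA3 array in both. CA1 and CTX did not differ beyond their spread after median scaling (adjusted p = 0.892), though the CA1 signals as deposited lay below those of CTX. Without CbG replicate 2 the CbG minus CTX difference was 0.82 and the CA1 minus CbG difference -0.87, without CTX replicate 2 the former was 0.91, and none of these was called. With no value added before log2, CbG minus CTX was 1.28 and was not called, and the F test no longer passed (adjusted p = 0.0558). As labelled, CbG minus CTX was 0.78 ± 0.35 (adjusted p = 0.405).

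*Grik1* was low in the hippocampus. Its signal was 3.9, 8.6 and 15.9 in CA1, 43.3 and 14.4 on CA3 replicates 1 and 2, 70.8 and 163.4 on CbG replicates 1 and 2, and 245.4, 154.5 and 214.8 in CTX. It was 12.8 on the array labelled CA3 replicate 3 and 36.9 on that labelled CbG replicate 3. Without the 2 arrays, those of the hippocampus lay below those of CbG and CTX, which overlapped each other, whereas CbG overlapped with CA3 under either labelling of all 12. The CA1 minus CTX difference was -1.90 ± 0.27 (log2, SE; adjusted p = 0.00173) and CA3 minus CTX was -1.43 ± 0.32 (adjusted p = 0.018). CA1 minus CbG was -1.43 ± 0.32 (adjusted p = 0.0106), but it was not called with the labels exchanged (-0.94 ± 0.35, adjusted p = 0.0687), without CbG replicate 2 (-0.82) or without CA1 replicate 1 (-1.35). CA3 minus CTX was not called without CA3 replicate 2 (-1.07), without CTX replicate 1 (-1.18) or with no value added before log2 (-2.37). CbG exceeded CA3 by 0.96 ± 0.33, which did not pass (adjusted p = 0.0648), though limma gave it an unadjusted p under 0.05. CTX against CbG (adjusted p = 0.393) and CA3 against CA1 (adjusted p = 0.516) did not pass either. As labelled, CA1 minus CTX remained called (adjusted p = 0.0191), and it was lost without any 1 of the CA1 or CTX arrays (-2.12 to -1.76).

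Among the metabotropic receptors, *Grm3* had the highest signals in CTX. In this group II receptor, which is also known from astrocytes, the signal was 179, 151.7 and 94.7 in CA1, 192.2 and 48 on CA3 replicates 1 and 2, 98.2 and 85 on CbG replicates 1 and 2, and 1436.6, 1220.8 and 1319.5 in CTX. Replicate 3 as labelled gave 101.9 for CA3 and 137.7 for CbG, both within the range outside CTX. Every CTX array thus lay above every other array, whichever labels were used. CbG minus CTX was -3.22 ± 0.30 (log2, SE; adjusted p = 0.000142), CA3 minus CTX was -2.96 ± 0.30 (adjusted p = 0.000527) and CA1 minus CTX was -2.58 ± 0.25 (adjusted p = 0.000236). As labelled, the same 3 differences were -2.96, -2.88 and -2.58 and all were called (adjusted p = 0.00394, 0.00492 and 0.00579). CA1, CA3 and CbG did not differ beyond their spread, as CA1 minus CA3 was 0.37 ± 0.30 (adjusted p = 0.595) and CA3 exceeded CbG by 0.27 ± 0.31 (adjusted p = 0.606). Summed signals of 8 astrocyte markers were 19022 to 33389 in CTX and 23156 to 27573 in CbG, where *Grm3* was low, against 9250 to 15728 in the hippocampus, and their part in the *Grm3* difference was not tested.

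*Grm2*, the other group II receptor, was low in the hippocampus. Its signal was 6.6, 4.7 and 19.9 in CA1, 36.4 and 6.2 on CA3 replicates 1 and 2, 143.6 and 149.9 on CbG replicates 1 and 2, and 173.5, 113.5 and 173.4 in CTX. Replicate 3 as labelled gave 43 for CA3 and 11.4 for CbG. Among the 10 arrays, those of the hippocampus did not overlap with those of CbG and CTX, which overlapped each other, whereas as labelled CbG overlapped with both CA1 and CA3. CA1 minus CTX was -1.57 ± 0.19 (log2, SE; adjusted p = 0.000895) and CA1 minus CbG was -1.72 ± 0.23 (adjusted p = 0.000619). CA3 minus CTX was -1.25 ± 0.23 (adjusted p = 0.00868) and CA3 minus CbG was -1.41 ± 0.24 (adjusted p = 0.00275). Neither CbG against CTX (0.16 ± 0.23, adjusted p = 0.737) nor CA1 against CA3 (adjusted p = 0.55) passed. CA3 minus CTX was not called without CA3 replicate 2 (-0.98) or with no value added before log2 (-2.60). As labelled the F test gave an adjusted p of 0.18 for *Grm2*, and with the labels exchanged 0.00111. On each of the 12 arrays the signal lay below the array median, so these are differences among weak signals.

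*Grm4*, of group III, was highest in CbG. Its signal was 30.8, 68.6 and 35.5 in CA1, 112 and 83.7 on CA3 replicates 1 and 2, 786.7 and 453.7 on CbG replicates 1 and 2, and 123.4, 161.6 and 141.3 in CTX. The array labelled CA3 replicate 3 gave 1014.6, the highest of all, and that labelled CbG replicate 3 gave 121.3. CbG replicates 1 and 2 lay above every other array apart from that labelled CA3 replicate 3. CbG exceeded CTX by 1.81 ± 0.27 (log2, SE; adjusted p = 0.00223), CA1 minus CbG was -2.64 ± 0.27 (adjusted p = 0.00013) and CA3 minus CbG was -1.97 ± 0.28 (adjusted p = 0.000972). CA1 minus CTX was smaller, -0.83 ± 0.23 (adjusted p = 0.0317), and it was not called after quantile normalization (-0.76), without CA1 replicate 1 (-0.65) or 3 (-0.80), or without CTX replicate 1 (-0.95), 2 (-0.74) or 3 (-0.80). CTX against CA3 (adjusted p = 0.755) and CA3 against CA1 (adjusted p = 0.225) did not pass. CA3 exceeded CA1 by 0.67 ± 0.27, with an unadjusted p under 0.05 in limma, and their arrays did not overlap among the 10. With no value added before log2, CbG minus CTX was 2.16 and CA1 minus CTX -1.42, and neither was called. As labelled, CbG minus CTX was 1.24 ± 0.77 (adjusted p = 0.574). With the labels exchanged it was 2.13 ± 0.26 (adjusted p = 0.000146), and the mean signal was 752 ± 282 (SD, n = 3) in CbG and 106 ± 19.6 in CA3.

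The remaining receptors gave weak signals in every region. *Grm7*, a group III receptor of the presynaptic active zone, ranged from 19.6 to 69.8 over the 12 arrays, and *Grm5*, the group I receptor, from 2.7 to 85.8. For *Grm5* the lowest CA1 value was 6.6 and the highest 84.6, nearly the whole range of the gene. limma called 0 pairs of regions for either gene over the 10 or the 12 arrays, and none had an unadjusted p under 0.05. *Grm7* was higher on all 3 CA1 arrays (56.2, 60.4 and 69.8) than on any CA3 or CbG array under either labelling, with a CA1 minus CbG difference of 0.54 ± 0.25 over the 10 arrays (log2, SE; adjusted p = 0.163). No regional difference passed the test with these probe sets, which does not show that the receptors are evenly expressed.

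The comparison of the study, VUL against RES, subtracts the average of the RES regions from that of the VUL regions. Over the 10 arrays it called 2 of 9 genes, both lower in VUL, where 9.02% of all probe sets were called. *Grik4* had a difference of -2.03 ± 0.17 (log2, SE; adjusted p = 0.000159) and *Grm3* of -1.42 ± 0.20 (adjusted p = 0.00224). The methods' paired test, on 4 pairs of same-numbered arrays, called 0 of the 9 before or after adjustment, with 774 of all probe sets called before adjustment and 0 after. Over the 12 arrays as labelled limma called 0 of the 9, where 0.0504% of all probe sets were called, and *Grik1* and *Grm3* had an unadjusted p under 0.05. There *Grik4* had -1.16 ± 0.60 (adjusted p = 0.653) and *Grm3* -1.33 ± 0.20 (adjusted p = 0.0633). With the labels exchanged, 3 genes were called, where 10.1% of all probe sets were, namely *Grik4* (-2.00 ± 0.14, adjusted p = 4.91e-06), *Grm3* (-1.43 ± 0.18, adjusted p = 0.000282) and *Grm4* (0.69 ± 0.18, adjusted p = 0.0249). *Grm4* was the only one of these higher in VUL, and over the 10 arrays its difference was 0.57 ± 0.18 (adjusted p = 0.0776). The number of genes called changed without CbG replicate 2, and the share of all probe sets called in that fit is not given here. With no value added before log2, *Grm3* had -1.63 and was not called.

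The difference of VUL and RES was made up of unequal pairs of regions. Within the hippocampus, CA1 against CA3, 1 of 9 genes was called over the 10 arrays (*Grik4*), where 4.03% of all probe sets were. Between cerebellum and cortex, CbG against CTX, 4 were called, with *Grik2* and *Grm4* higher and *Grik5* and *Grm3* lower in CbG, where 12.1% of all probe sets were. Whether the difference was the same in both pairs was tested as CA1 minus CA3 less CbG minus CTX. It passed for 4 of 9 genes over the 10 arrays, where 7.15% of all probe sets did, with -2.76 ± 0.36 for *Grik4* (log2, SE; adjusted p = 0.00193), 3.60 ± 0.44 for *Grm3* (adjusted p = 0.00128), -2.48 ± 0.39 for *Grm4* (adjusted p = 0.00476) and -1.62 ± 0.33 for *Grik2* (adjusted p = 0.0164). The lower level of *Grik4* in VUL was thus mainly that of CA1 against CA3, as CbG minus CTX was -0.65 ± 0.25 (adjusted p = 0.125), and the lower level of *Grm3* was that of CbG against CTX. Of these 4, *Grik2* did not pass without any 1 of CA1 replicates 1 and 2, CA3 replicates 1 and 2, CbG replicate 2 and CTX replicate 2 (-1.66 to -1.34). With no value added before log2, *Grik4* (-3.505), *Grm4* (-3.35) and *Grik2* (-1.92) did not pass and *Grm3* did. Exchanging 2 labels between CA3 and CbG leaves the estimate over 12 arrays as it is, because both regions enter with the same sign. It was 3.26 for *Grm3*, and the adjusted p was 0.00747 as labelled and 9.47e-05 exchanged. As labelled 1 of 9 genes passed, where 1.42% of all probe sets did, and with the labels exchanged 4 passed, where 12.4% of all probe sets did.

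**Figure D2:**
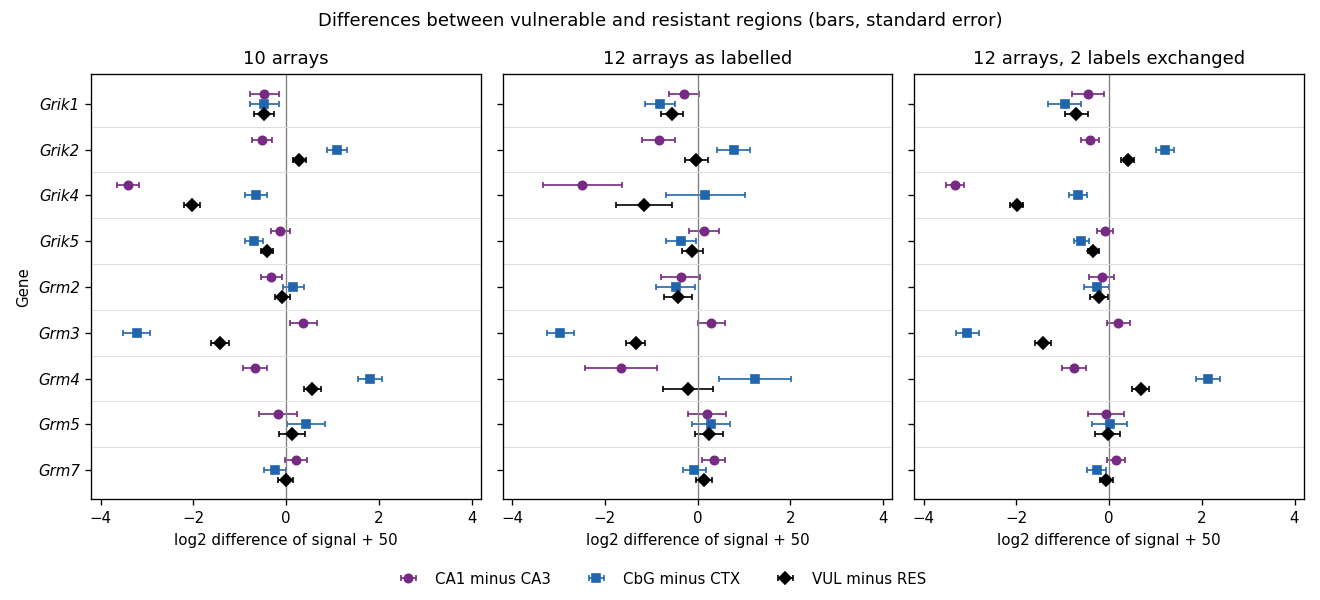
Log2 differences of signal + 50 for each receptor gene, with standard errors as bars, for CA1 minus CA3 (circles), CbG minus CTX (squares) and VUL minus RES (diamonds). The panels show the 10 arrays, the 12 arrays as labelled and the 12 arrays with 2 labels exchanged. *Grik4* lies far below 0 in CA1 minus CA3 and *Grm3* in CbG minus CTX, and the bars of *Grik4* and *Grm4* are widest as labelled (0.85 and 0.77).

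In the other pairs, over the 10 arrays, 5 of 9 genes were called between CA1 and CbG, where 21.5% of all probe sets were, and 5 between CA1 and CTX, where 17.9% were. Between CA3 and CbG 4 were called, where 22.8% of all probe sets were, and between CA3 and CTX 4, where 14.5% were. *Grik4* was called in 4 of the 6 pairs, as was *Grm4*, and *Grm2* in 4. As labelled, the calls were *Grm3* and *Grik1* in CA1 against CTX (3.58% of all probe sets), *Grm3* in CA3 against CTX (1.39%) and *Grm3* in CbG against CTX (0.662%). As labelled limma called 0 of the 9 in CA1 against CA3 (0.832% of all probe sets, with 2 genes at an unadjusted p under 0.05), in CA1 against CbG (0.807%, with 4 genes) and in CA3 against CbG (0%, with 1 gene).

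*Grik1* and *Grm2* were alike over the 10 arrays (Pearson's r = 0.943 of log2(signal + 50), over arrays that share 4 regions), and both were low on the array labelled CA3 replicate 3. *Grik2* and *Grm4* on that array lay with CbG replicates 1 and 2 or above them, whereas *Grik1* (12.8) and *Grm2* (43) lay below both of those. Purkinje cell markers differed in the same direction. The sum of 5 was 15789 and 37256 on CbG replicates 1 and 2 and 2607 on that array, with *Pcp2*, a Purkinje cell protein, at 1883.2, 3601.6 and 294.9 and *Car8*, another marker of these cells, at 3849.7, 9876.9 and 115. The sum of 5 Golgi cell markers was 4972 and 8027 on CbG replicates 1 and 2 and 2908 on that array, most of it *Gad1* (4413.4, 7325.4 and 2409), while the defining marker *Slc6a5* was weak on all 3 (13.3, 8.4 and 51.6). That sum was 5124 to 5375 in CA1, where both genes were low, and 7438 to 11388 in CTX. In CTX, where both genes were as high as in CbG, Purkinje markers summed to 4217 to 5564. The summed signals of 5 oligodendrocyte markers followed the order of *Grik1* across regions, at 3850 to 5121 in CA1, 8155 to 10521 in CA3, 9641 to 12460 in CbG and 22140 to 35487 in CTX, but reached 16969 on the array labelled CA3 replicate 3, where *Grik1* was low. Inhibitory neuron markers, which share *Gad1* with the Golgi list, summed over 6 genes to 10214 to 14327 in CTX and 6019 and 10295 in CbG. That sum was 3763 and 5049 in CA3 and 3006 on the array labelled CA3 replicate 3. In CA1, where both genes were low, it was 6863 to 7841. The part of these cells in the 2 genes was not tested.

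**Figure D3:**
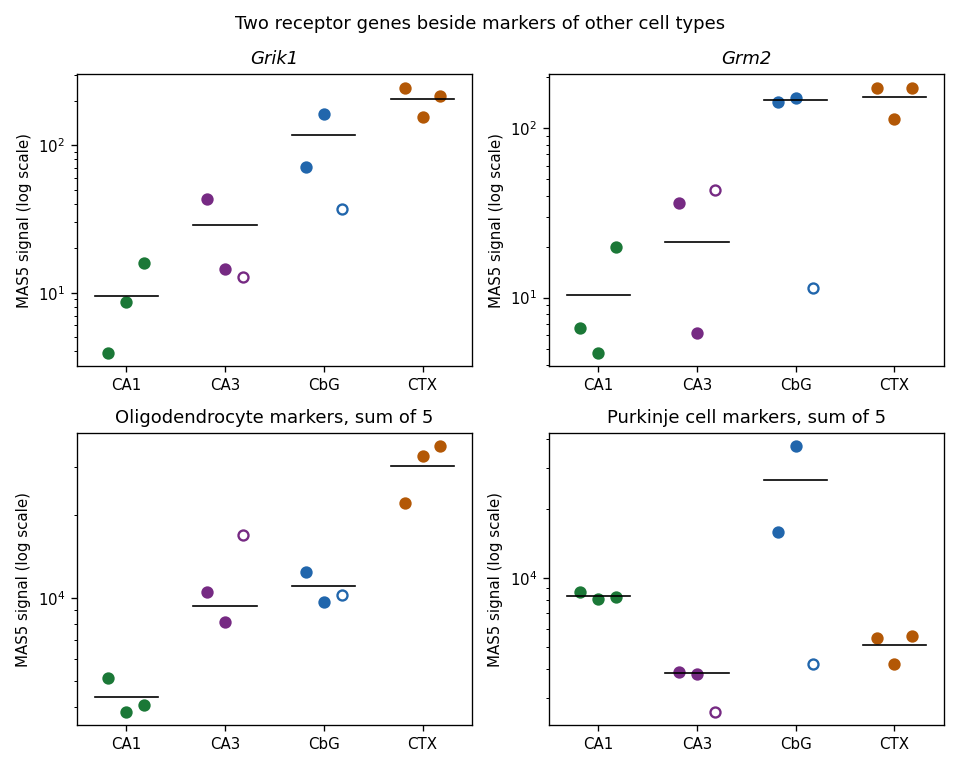
Signals on a log axis of *Grik1* and *Grm2* and the summed signals of 5 oligodendrocyte and 5 Purkinje cell markers, with 1 point per array and region means of filled points as bars. Open circles mark replicate 3 of CA3 and of CbG as labelled. Among the filled points, *Grik1* and *Grm2* are higher in CbG and CTX than in CA1 and CA3. Purkinje markers are highest in CbG (15789 and 37256) and oligodendrocyte markers in CTX.

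For each gene that differed, the 3 probe sets whose pattern was most like it over the 10 arrays were sought among those with 1 symbol, as a description over arrays that share 4 regions. *Grik4* was followed by *Pls3* (r = 0.957), an actin-bundling protein, and by *Hsd17b7* and *Smco4* (both 0.955). *Grm3* was most like *Rprm* (0.983), *Rgs4* (0.967), a regulator of G protein signaling, and *Fhod3* (0.960). *Grm4* was most like *Cdkn2c* (0.978), an inhibitor of cyclin-dependent kinases, *Vsig10* (0.975) and *Cracr2b* (0.969). *Grik2* was most like *Nrg1* (0.981), a growth factor that binds ErbB receptors, *Dsc2* (0.978) and *Cdk16* (0.973). *Grik5* was most like *Nomo1* (0.983), *Olfm1* (0.977) and the noncoding RNA *Meg3* (0.975). For *Grm2* these were *Rnf130* and *Dbndd2* (both 0.970) and *Aspa* (0.962), an enzyme of oligodendrocytes, and for *Grik1* they were *Pop1* (0.964), *Prkcq* (0.959) and *Pllp* (0.954), a myelin protein.

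Genes around the receptors were counted from lists, beside the 31.8% of all probe sets that passed the F test over the 10 arrays and the 2.38% as labelled. Of the other receptors of both families *Grik3*, *Grm6* and *Grm8* were measured, and limma's F test called 0 of the 3 over the 10 arrays, with 1 of the metabotropic pair at an unadjusted p under 0.05. Of 5 measured partners of kainate receptors, such as the scaffolds that bind them, 0 were called, with 1 at an unadjusted p under 0.05. Of 14 measured genes listed for the coupling of group I receptors, 9 differed among regions over the 10 arrays. In limma's F test as labelled 0 did, where 3 had an unadjusted p under 0.05. This list holds scaffolds and other receptor-associated proteins beside the Gq pathway. *Plcb4*, a phospholipase C, had a CA3 minus CbG difference of -4.96 ± 0.22 (adjusted p = 2.41e-06), *Ncdn*, whose protein binds that of *Grm5*, had 2.52 ± 0.29 (adjusted p = 0.000333), and *Plcb1*, another phospholipase C, was higher in CA1 than in CbG by 2.10 ± 0.21 (adjusted p = 0.000128). Of 12 measured genes listed for the coupling of groups II and III, 7 differed over the 10 arrays and 3 as labelled. This list holds receptor partners beside genes of Gi and Go signaling. The adenylyl cyclase *Adcy2* was higher in CA1 than in CbG by 3.31 ± 0.28 (adjusted p = 4.98e-05), *Elfn2*, a postsynaptic partner of group III receptors, by 2.97 ± 0.27 (adjusted p = 6.39e-05), and the potassium channel subunit *Kcnj6* was higher in CA1 than in CTX by 2.14 ± 0.19 (adjusted p = 0.000159). In CbG against CTX, 1 of these 12 was higher and 2 were lower, with a median difference of -0.11 beside 0.06 over all probe sets. Of 7 genes of glutamate transport and synthesis, 4 differed over the 10 arrays and 0 in limma's F test as labelled, where 1 had an unadjusted p under 0.05. The vesicular transporter *Slc17a6* was higher in CA1 than in CTX by 3.64 ± 0.52 (adjusted p = 0.00181), *Slc17a7* was higher in CA3 than in CbG by 2.31 ± 0.22 (adjusted p = 0.000117), and the neuronal transporter *Slc1a1* was higher in CA1 than in CbG by 2.04 ± 0.25 (adjusted p = 0.000389). The differences of these named genes are over the 10 arrays. As labelled only *Adcy2* and *Kcnj6* of them passed the F test, and *Slc17a7*, for example, had a CA3 minus CbG difference of 1.01 ± 0.63 (adjusted p = 0.846) and *Elfn2* a CA1 minus CbG difference of 2.11 ± 1.09 (adjusted p = 0.375).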

How the data were processed

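Signals of 12 arrays (Affymetrix RAE230A) were read from the value table. According to the submitters' processing notes, the deposited intensity values were made by the authors with MAS5, in the GeneChip Operating Software according to the methods, and scaled to 1 target intensity. The mean without the extreme 2% of signals at each end was 500.12 to 500.15 on all arrays. RNA had been amplified in 2 cycles. Probe sets were named with GEO's platform annotation, which gave 12783 of them 1 symbol and 312 several, while 2771 were not listed. The 57 controls were left out and 15866 were tested with no filter on low signals, since a filter at the array median in most arrays keeps 2 of the 9 receptor genes, *Grik2* and *Grik5*. limma 3.58.1 under R 4.3.3 was fitted to log2(signal + 50), each array scaled to the same median, with region means and the replicate number as a block. Deviations of same-numbered arrays from their region means had a mean correlation of 0.0722 over the 10 arrays, against -0.0391 for other numbers, and the data lend the pairing little weight. The methods name a paired test and samples of the 4 populations from each animal, but the number of rats, and whether a replicate number stands for 1 rat, are not given in the sources used here. Alternatives were a paired t-test modelled on the methods, other added values, scalings and filters, and leaving out each array or replicate number. The paired t-test took CA1 with CA3 and CbG with CTX as pairs, on the scale and probe sets used here. p-values measure the spread between samples labelled as biological replicates. The receptor genes, the gene lists and the 10-array arrangement were chosen with earlier results of these data known. The fits were tested on simulated data, and the plots were made with Python 3.11.15 and matplotlib 3.10.9. The number of arrays limits the precision. Named genes outside the receptors are those with the most similar pattern and, of each list, up to 3 with the largest difference among those called.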

Additional observations from a re-analysis of the deposited data

Results flagged for a closer look

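The CA1 minus CA3 and the CbG minus CTX differences were unequal by limma's test of the difference itself for *Grm3* over the 12 arrays as labelled (3.26 on the log2 scale). Over the 10 arrays they were unequal for *Grm3* (3.60), *Grik4* (-2.76), *Grm4* (-2.48) and *Grik2* (-1.62).

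In the 6 RES arrays as labelled, the array labelled CA3 replicate 3 stood apart in *Grm4*. Its gap to the nearest of the others was 0.860 of the range of the group. By this measure chance sets apart about 1 in 20 groups drawn from 1 population. That rate does not hold here, as each group joins 2 regions. Each of the 9 genes was screened in both VUL and RES, so chance alone can give such a flag. This array is 1 of the 2 that go against their labels.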

How the results depend on the processing

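Over the 12 arrays as labelled, the 2 receptor genes that differed among regions became 1 with no value added or with 16 added before log2 and after quantile normalization, 0 under the filter on low signals and 7 with the labels exchanged. The 4 calls over the 6 pairs became 0 under the filter and 25 with the labels exchanged. The 0 genes called between VUL and RES became 1 with no further scaling, after quantile normalization and with no replicate block, and 3 with the labels exchanged. The 1 gene with unequal pairs became 0 with no value added and under the filter, and 4 with the labels exchanged. Over the 10 arrays, the 7 genes became 6 and the 23 pair calls 16 with no value added, and 2 and 6 under the filter, which tests only 2 of the genes. The 2 genes between VUL and RES became 1 with no value added, 0 under the filter and 0 in the paired t-test over 4 pairs, before and after adjustment. The 4 genes with unequal pairs became 1 with no value added and 1 under the filter. No called difference changed its sign in these alternatives.

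Leaving out each array or replicate number gave 0 to 7 genes, 0 to 21 pair calls, 0 to 2 genes between VUL and RES and 0 to 4 with unequal pairs as labelled, the highest each time without replicate 3, the number of both arrays that go against their labels. Over the 10 arrays these were 5 to 7 (lowest without CbG replicate 2 and without replicate 2), 15 to 25 (lowest without replicate 2), 2 to 4 (highest without CbG replicate 2) and 3 to 4. With no replicate block in place of the paired fit, the 10 arrays gave 24 pair calls against 23 and the same 29 of 29 called differences. The cause of these changes was not tested. The share of all probe sets called moved as well, as from 2.38% as labelled to 38.8% exchanged in the F test. Shares for the other alternatives are not given here, so these counts alone are no result about the receptors. Signals near or below the array median, as for *Grik1*, *Grm2*, *Grm5* and *Grm7*, limit what a lost or missing call can show, as does the small number of arrays.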
